A study of Mus musculus with 9 samples.

Results

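Liver RNA of ob/ob mice that received TUDCA was compared with liver RNA of untreated ob/ob mice, gene by gene and across the functions of the liver. The comparison rests on 6 of the 9 arrays of the series, the 3 named OB-TUDCA and the 3 named OB-control by their titles, and the 3 N-control arrays served as a reference level and entered the estimate of the spread. OB-control and OB-TUDCA mice were of the strain B6.V-Lepob/J, which carries the ob mutation on both copies of the leptin gene, so the controls of this comparison also lacked leptin, and N-control mice were C57BL/6J. Treated mice were gavaged with TUDCA at 500 mg/kg per dose, 2 doses a day, over 3 weeks, while both control groups were given an equal volume of tap water. Each group held 6 mice by the methods, of which 3 went onto arrays. The mice were male and 6 weeks old when purchased per the study's methods, ate normal chow, and were killed after 8 h of fasting. All genes whose probe sets on the Affymetrix Mouse Gene 1.0 ST array carry exactly 1 gene symbol were included, which gave 19938 genes from 21789 of 35556 probe sets. Values are log2 signals after RMA, a method that corrects background, equalizes the arrays and reduces the probes of each set to 1 value, so a difference of 1 is a change of 2-fold.

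TUDCA is the taurine conjugate of ursodeoxycholic acid, a hydrophilic bile acid, and is also used as a chemical chaperone that lowers stress of the endoplasmic reticulum. Hepatocytes make bile acids from cholesterol, conjugate them with taurine or glycine and export them into bile, and the same cells break down amino acids, steroids, carotenoids and foreign compounds, store iron and secrete acute phase proteins. Mice without leptin overeat, become obese and store fat in the liver, and their corticosterone is raised.

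The 9 arrays had medians between 4.502 and 4.579. Pearson r across all probe sets was 0.985 to 0.989 within OB-control, 0.987 to 0.988 within OB-TUDCA and 0.982 to 0.987 between these groups. Hepatocyte markers such as Alb and Apoa1 had a mean of 12.71 to 12.92 on every array, so the markers of the labelled tissue were present. Lep was between 2.756 and 3.218 and Xist between 2.6 and 3.253, both below the median of every array. N-control replicate 2 stood apart through the digestive enzymes of the exocrine pancreas, whose 24 measured genes had a mean of 9.417 there and 3.757 to 4.141 elsewhere. In the fit it affects the comparison only through the estimate of the spread, and results without it are given beside each group of genes. Any part it had in the equalizing of the arrays by RMA was not tested.

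TUDCA-treated ob/ob livers had 23 genes that rose and 37 that fell against untreated ones at an adjusted p under 0.05 in limma, 0.301% of those tested (0.115% higher and 0.186% lower). The counts of called genes in the lists below stand against these shares. Rises ranged from 0.44 to 1.81 on the log2 scale with a median of 0.867, and falls, by size, from 0.45 to 2.09 with a median of 0.763. The largest rises were those of Lpin1, Cd93, Rhoc, Foxa3 and Csad, and the largest falls those of Hsd3b3, Rnf125, Car5a, Bco2 and Spns2, which belong to lipid, steroid, carbon dioxide and carotenoid metabolism, cell shape, transcription and protein turnover. In each of the 60 genes the 3 OB-TUDCA arrays all lay above, or all below, the 3 OB-control arrays, as they did for 13.8% of all genes, 7.26% higher and 6.53% lower. The gap between the nearest arrays of the groups was widest in Lpin1, at 1.28, and in Rnf125, at 1.16. Over all genes the median difference was 0.0122, and before adjustment a p under 0.05 was reached by 1249 higher genes (6.26%) and 1141 lower ones (5.72%). Just inside the threshold lay Cd93 (adjusted p = 0.0499999 in limma), Rpa1 (0.0489) and Agxt2, Bphl and Sema3f (0.0468 each), and just outside it Sesn3 (0.0502), Acat3 and Tmc7 (0.0504 each) and 2610528J11Rik and Abcb11 (0.0529 each).

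**Figure D1:**
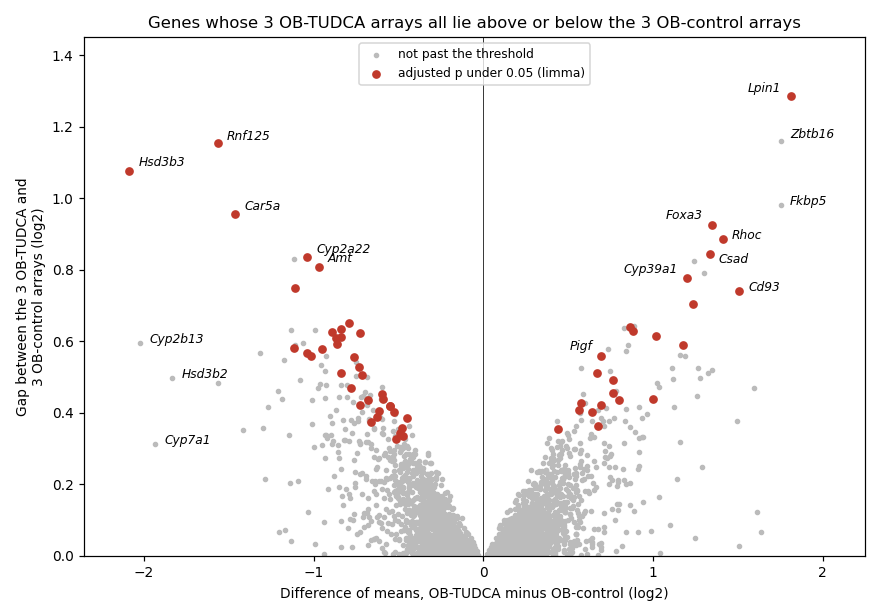
Each point is a gene whose 3 OB-TUDCA arrays did not overlap the 3 OB-control arrays. The horizontal axis is the log2 difference of group means and the vertical axis the log2 gap between the nearest arrays of the groups, with the 60 genes past the threshold in red. Lpin1 and Rnf125 have the widest gaps, and Zbtb16 and Fkbp5 have wide gaps without passing the threshold.

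The calls depended on which array was left out. None of the 60 genes passed without OB-TUDCA replicates 2 or 3, OB-control replicate 1 or N-control replicate 2, with adjusted p from limma between 0.0545 and 0.193 over these fits. Of the 60, 23 passed without N-control replicate 1, 29 without N-control replicate 3, 27 without OB-control replicate 2, 18 without OB-control replicate 3 and 45 without OB-TUDCA replicate 1. The genes that passed in each of these last 5 fits numbered 13, namely Lpin1, Rhoc, Csad, Cyp39a1, Pigf, Rnf125, Car5a, Amt, Steap3, Aldh4a1, Dglucy, Ces1g and Pm20d1. At an unadjusted p under 0.05 in limma all 60 passed in all 9 fits, with the highest at 0.0011. The 60 were chosen for a low p on these same arrays, so that result is no independent evidence. With only the 6 arrays of both ob/ob groups in the fit, or with the pancreatic mean of each array as a covariate, none of the 60, and no other gene, passed in limma after adjustment, while before adjustment a p under 0.05 was reached by 1056 higher and 1004 lower genes in the first fit and by 1151 and 1048 in the second.

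**Figure D2:**
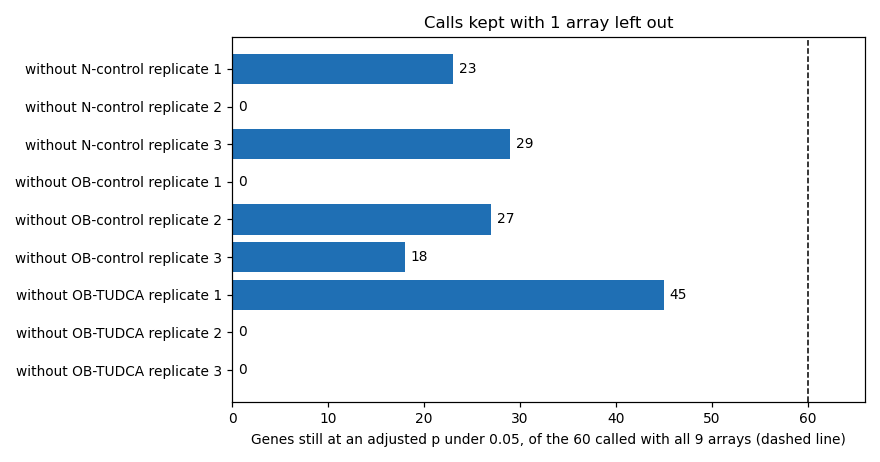
Bars give, for each array left out, how many of the 60 genes remained at an adjusted p under 0.05 in limma, and the dashed line marks 60. The count is 45 without OB-TUDCA replicate 1, between 18 and 29 without 4 other arrays, and 0 without the remaining 4.

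Lpin1, Map3k6 and Il6ra, members of a list of genes that glucocorticoids induce in liver and other tissues, rose in OB-TUDCA mice. Lpin1, a phosphatidate phosphatase that also acts as a coactivator of transcription and whose hepatic transcription glucocorticoids raise, had log2 signals of 8.81, 8.65 and 9.33 on the OB-control arrays and 10.61, 10.82 and 10.79 on the OB-TUDCA arrays. All OB-TUDCA arrays also lay above the N-control arrays, at 9.65, 9.51 and 9.05, and the spread among the OB-TUDCA arrays was the smallest of the groups. The rise over OB-control was 1.81 (standard error 0.19, adjusted p = 0.0192), or 3.51-fold, while the arrays of its paralogues Lpin2 and Lpin3 overlapped between the groups (adjusted p = 0.849 and 0.957). Map3k6, a kinase of the Mapk cascades, had signals of 4.73, 4.82 and 5.03 on the OB-control arrays and 5.62, 6.05 and 6.43 on the OB-TUDCA arrays, and rose by 1.18 (standard error 0.18, adjusted p = 0.0441). Its 3 OB-TUDCA arrays spread over a wider range than its 6 control arrays, which all lay between 4.73 and 5.03. Il6ra, the receptor for interleukin 6, had signals of 8.09, 8.45 and 8.06 on the OB-control arrays and 9.31, 9.06 and 9.27 on the OB-TUDCA arrays, and rose by 1.02 (standard error 0.13, adjusted p = 0.0262). The N-control arrays of Il6ra, at 8.20, 8.48 and 8.51, lay in and just above the range of OB-control.

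Of the 25 measured genes of the glucocorticoid list, 24 had a higher mean in OB-TUDCA mice, with a median difference of 0.818, against 0.0122 over all genes. The arrays did not overlap in 11, all higher, against 7.26% of all genes, and 3 were called higher, against 0.115%. Other members differed little, with overlapping arrays, among them Per1 and Klf9 (0.07 each), Tat (0.06) and Sgk1 (0.04). The member with a lower mean was Sult1e1 (-1.40 (standard error 0.52, adjusted p = 0.31)), also with overlapping arrays. The list was drawn up with results of these arrays known, so its count is not independent evidence. Fkbp5, a chaperone of the glucocorticoid receptor and a classical target of it, had signals of 7.35, 8.00 and 8.34 on the OB-control arrays and 9.32, 9.55 and 10.08 on the OB-TUDCA arrays, a difference of 1.75 (standard error 0.39, adjusted p = 0.101). Zbtb16, a transcription factor that glucocorticoids induce, had signals of 7.25, 6.73 and 7.56 on the OB-control arrays and 8.83, 8.72 and 9.24 on the OB-TUDCA arrays, a difference of 1.75 (standard error 0.53, adjusted p = 0.21). Both had the widest gaps of any gene after Lpin1 on the higher side, but their N-control arrays spread from 6.57 to 7.97 and from 6.21 to 8.73, and neither passed the threshold. Dusp1, a phosphatase that switches off Mapk kinases, had signals of 8.71, 8.85 and 8.90 on the OB-control arrays and 9.72, 9.93 and 10.54 on the OB-TUDCA arrays. Its difference was 1.24 (standard error 0.27, adjusted p = 0.0914), and the N-control arrays, at 10.81, 10.22 and 9.73, lay with or above the OB-TUDCA arrays. The mean of the whole list was 7.87 to 8.33 on the OB-control arrays and 8.73 to 9.06 on the OB-TUDCA arrays. Corticosterone was not among the measurements used here.

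The acute phase and interleukin 6 list, which shares Il6ra, Cebpd and Lcn2 with the glucocorticoid list, had a median difference of 0.482 over 31 measured genes. Its arrays did not overlap in 12 genes that were higher and 1 that was lower, against 7.26% and 6.53% of all genes, and Il6ra alone was called higher, against 0.115%. The listed C3 was matched through a synonym to Olfr48, an olfactory receptor gene (-0.02, with overlapping arrays). Thus 1 of the 31 is no acute phase gene, and C3 itself was not read. Fgl1, a secreted liver protein of the acute phase, differed by 1.29 (standard error 0.31, adjusted p = 0.115), and Cebpb, a transcription factor of that response, by 0.63 (standard error 0.11, adjusted p = 0.0529). The mean level of the 20 measured Kupffer cell and macrophage markers was 6.471, 6.693 and 6.767 on the OB-control arrays and 6.616, 7.1 and 7.287 on the OB-TUDCA arrays, and that of the 10 neutrophil markers 3.254 to 3.326 and 3.303 to 3.738. The part of these cells in the result was not tested. None of the 3 genes that rose passed without OB-TUDCA replicates 2 or 3, OB-control replicate 1 or N-control replicate 2 (adjusted p from 0.0545 to 0.175), and between 1 and 3 of the 3 passed with any 1 of the other 5 arrays left out (adjusted p from 0.0171 to 0.0831).

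Sequence upstream of these genes was read from the RefSeq promoter table of build GRCm38.p6, which covers 250 bases before and 50 after each annotated start and held 46 of the 60 genes. The half-site of the glucocorticoid receptor, AGAACA on either strand, was present in at least 1 window of 2 of the 16 higher genes in the table (12.5%), Lpin1 and Aldoa, and of 2 of the 30 lower ones (6.67%), Kmo and Ube2h. Of all 27025 genes in the table, 21.3% held it. The full glucocorticoid response element, made of 2 such half-sites facing each other 3 bases apart, was in none of the windows of the 60 genes and in 3 genes of the whole table. An E-box, CACGTG, was in the windows of Il6ra and Tspan4 among the higher genes, of Rpa1 among the lower ones, and of 8.09% of all genes. The stretches of the higher genes with a half-site and of Il6ra are shown because they hold these letters before the start of genes that rose, each 5′ to 3′ on the gene's own strand with the motif in capitals, where TGTTCT is the half-site read on the opposite strand.
Lpin1 (chr12:16611084-16611169, minus strand): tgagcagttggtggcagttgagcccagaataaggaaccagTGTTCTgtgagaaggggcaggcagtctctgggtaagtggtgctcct
Aldoa (chr7:126799306-126799391, minus strand): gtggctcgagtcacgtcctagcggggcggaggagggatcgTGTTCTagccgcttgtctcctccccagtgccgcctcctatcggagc
Il6ra (chr3:89913197-89913260, minus strand): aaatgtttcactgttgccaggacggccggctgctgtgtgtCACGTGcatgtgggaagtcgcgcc
The half-site of Lpin1 lay 163 to 158 bases before the start, and the E-box of Il6ra 24 to 19 bases before it. A match of letters is a description and no measure of binding.

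**Figure D3:**
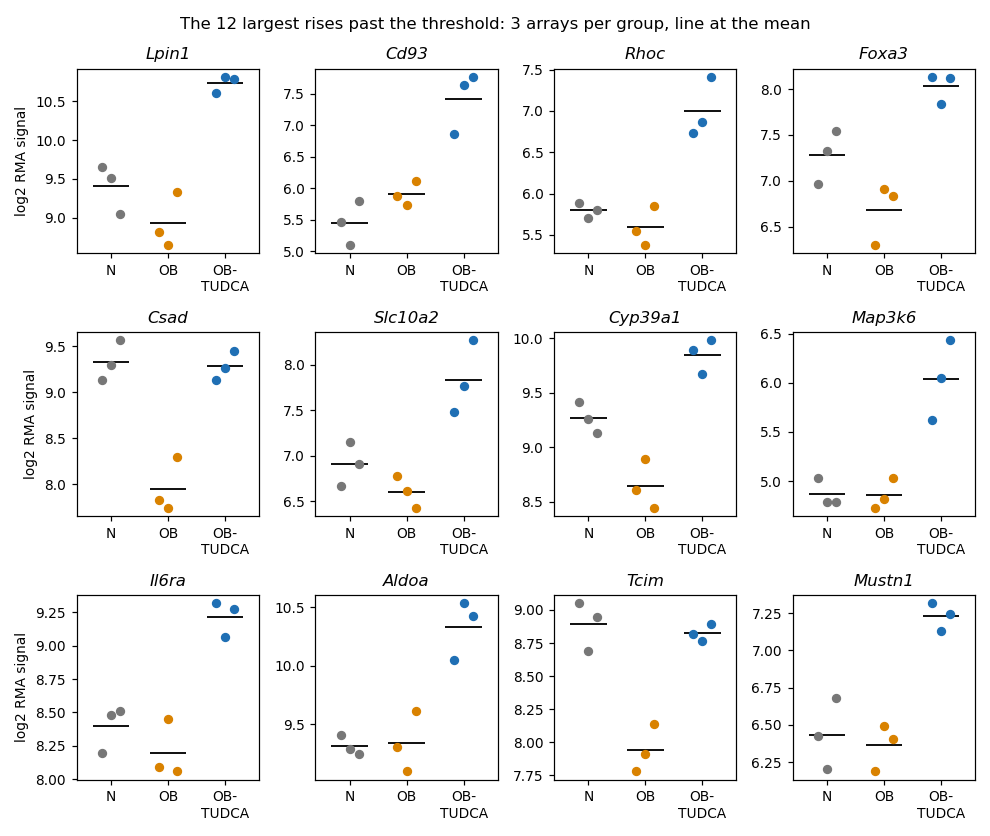
Log2 RMA signal of the 12 genes with the largest rises past the threshold, with 1 point per array, 3 arrays each for N-control (N), OB-control (OB) and OB-TUDCA, and a line at the mean. The vertical axes do not start at 0. In Csad and Tcim the OB-TUDCA arrays lie at the N-control level, and in all other genes shown they lie above every array of both control groups.

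Foxa3, a forkhead transcription factor that opens chromatin at liver genes, rose in OB-TUDCA mice, whereas Nr1d1, a nuclear receptor of the circadian clock that represses transcription, fell. Foxa3 had signals of 6.30, 6.91 and 6.84 on the OB-control arrays and 8.13, 7.84 and 8.12 on the OB-TUDCA arrays. Its N-control arrays, at 6.96, 7.32 and 7.54, lay between both ob/ob groups, and OB-control replicate 1 was lowest. The rise was 1.35 (standard error 0.19, adjusted p = 0.0323), while the arrays of Foxa1 and Foxa2 overlapped between the groups (adjusted p = 0.588 and 0.977). Nr1d1 had signals of 9.34, 9.73 and 9.26 on the OB-control arrays and 8.27, 8.69 and 8.25 on the OB-TUDCA arrays, and fell by 1.04 (standard error 0.16, adjusted p = 0.0441). Of the other 18 measured clock genes none passed the threshold, among them Dbp (-0.71 (standard error 0.59, adjusted p = 0.693)), an output of the clock, and Cry1 (0.58 (standard error 0.13, adjusted p = 0.108)), one of its repressors. Nfil3 differed by 0.83 (standard error 0.35, adjusted p = 0.377), with a gap of 0.64 between the groups, against 0.57 in Nr1d1. Arrays were apart in 2 higher and 3 lower clock genes, against 7.26% and 6.53% of all genes. The hour at which each mouse was killed was not used here, and its part in the result was not tested. Of 37 measured liver transcription factors and nuclear receptors Foxa3 alone passed, and the median difference of the list was 0.0842. Its arrays were apart in 7 higher and 5 lower genes, against 7.26% and 6.53% of all genes.

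Tcim, a regulator of transcription and immune signalling, rose by 0.88 (standard error 0.12, adjusted p = 0.0285), with signals of 7.78, 7.91 and 8.14 on the OB-control arrays and 8.82, 8.77 and 8.89 on the OB-TUDCA arrays. Its OB-TUDCA arrays fell within the N-control range of 9.05, 8.69 and 8.95. Mustn1, a small nuclear protein of muscle and bone, rose by 0.87 (standard error 0.13, adjusted p = 0.0386), and Nfxl1, a zinc finger protein, by 0.58 (standard error 0.09, adjusted p = 0.0386). None of these 5 genes passed without OB-TUDCA replicates 2 or 3, OB-control replicate 1 or N-control replicate 2 (adjusted p from 0.0545 to 0.16), and between 1 and 3 of the 5 passed without any 1 of the other 5 arrays (adjusted p from 0.0392 to 0.0809).

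A forkhead motif, TGTTTAC on either strand, was in the windows of 3 of the 30 lower genes (10%), Car5a, Steap3 and Ube2h, of none of the 16 higher genes, and of 4.05% of all genes. They are shown, with the motif in capitals and GTAAACA as its opposite strand, since they are the genes past the threshold that carry the letters of the family to which Foxa3 belongs.
Car5a (chr8:121944975-121945061, minus strand): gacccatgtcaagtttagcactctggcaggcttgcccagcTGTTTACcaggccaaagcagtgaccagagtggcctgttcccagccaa
Steap3 (chr1:120270271-120270325, minus strand): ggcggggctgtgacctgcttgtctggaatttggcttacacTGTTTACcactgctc
Ube2h (chr6:30243951-30244037, minus strand): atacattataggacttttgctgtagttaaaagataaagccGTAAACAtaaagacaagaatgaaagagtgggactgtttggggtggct
The motif lay 109 to 103 bases before the start in Car5a, 15 to 9 in Steap3 and 194 to 188 in Ube2h. These matches of letters are no measure of binding, and any part of Foxa3 in these genes was not tested.

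Of 60 measured genes of amino acid breakdown, Abat, Amt, Aldh4a1, Agxt2 and Kmo fell in OB-TUDCA mice, while Csad, which makes the taurine precursor hypotaurine, rose, and no other member passed the threshold. Csad had signals of 7.82, 7.74 and 8.29 on the OB-control arrays and 9.14, 9.27 and 9.45 on the OB-TUDCA arrays, and rose by 1.33 (standard error 0.16, adjusted p = 0.0249). The N-control arrays, at 9.14, 9.29 and 9.56, lay at the OB-TUDCA level, and OB-control differed from N-control by -1.38 (adjusted p = 0.00596). Over the 60 genes the median difference was -0.504, and 55 had a lower mean in OB-TUDCA mice. The arrays did not overlap in 32 that were lower and in 1, Csad, that was higher, against 6.53% and 7.26% of all genes.

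Amt, the aminomethyltransferase of the glycine cleavage system, had signals of 8.64, 8.55 and 8.57 on the OB-control arrays and 7.74, 7.57 and 7.54 on the OB-TUDCA arrays, and fell by 0.97 (standard error 0.11, adjusted p = 0.0192). In each ob/ob group the arrays of Amt lay close together, and the gap between the groups was 0.81. Abat, which degrades the transmitter GABA, had signals of 10.63, 10.86 and 10.47 on the OB-control arrays and 9.91, 9.47 and 9.53 on the OB-TUDCA arrays, and fell by 1.01 (standard error 0.15, adjusted p = 0.0386). OB-TUDCA replicate 1 was the nearest to the controls in Abat and in Amt. Aldh4a1, of proline breakdown, fell by 0.86 (standard error 0.11, adjusted p = 0.0249), Agxt2, an aminotransferase that takes glyoxylate, by 0.71 (standard error 0.11, adjusted p = 0.0468), and Kmo, which hydroxylates kynurenine in tryptophan breakdown, by 0.55 (standard error 0.08, adjusted p = 0.0295). Kmo had the narrowest OB-control range of these genes, and its OB-TUDCA arrays, at 10.58, 10.36 and 10.44, lay 0.42 or more below it. Among members that missed the threshold, both subunits of the leucine enzyme methylcrotonyl-CoA carboxylase differed in the same direction, Mccc1 by -0.64 (standard error 0.13, adjusted p = 0.0814) and Mccc2 by -0.59 (standard error 0.12, adjusted p = 0.0803). Gldc and Gcsh, which work with Amt in the glycine cleavage system, differed by -0.47 (standard error 0.20, adjusted p = 0.399) and -0.52 (standard error 0.14, adjusted p = 0.165).

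Car5a, the mitochondrial carbonic anhydrase that supplies bicarbonate for the urea cycle and gluconeogenesis, had signals of 8.97, 8.75 and 8.60 on the OB-control arrays and 7.64, 6.99 and 7.30 on the OB-TUDCA arrays. The 6 control arrays of both genotypes lay between 8.60 and 8.97, and all OB-TUDCA arrays lay below them. Car5a fell by 1.46 (standard error 0.15, adjusted p = 0.0192), or 2.75-fold, and Car5b differed by -0.41 (standard error 0.13, adjusted p = 0.232). Of the 11 measured genes of the urea cycle and ammonia handling no other passed, and their median difference was -0.0956. Further mitochondrial or amino acid enzymes fell. They were Dglucy, a D-glutamate cyclase (-0.84 (standard error 0.09, adjusted p = 0.0192)), Slc25a21, a carrier of oxodicarboxylates (-0.68 (standard error 0.10, adjusted p = 0.0386)), Mipep, a peptidase that trims imported proteins (-0.66 (standard error 0.10, adjusted p = 0.0437)), Acad10, an acyl-CoA dehydrogenase (-0.55 (standard error 0.08, adjusted p = 0.0402)), Ddah1, which degrades dimethylarginine (-0.63 (standard error 0.10, adjusted p = 0.0402)), and Pm20d1, an enzyme of N-acyl amino acids (-0.73 (standard error 0.09, adjusted p = 0.0249)). Of these 13 genes, Csad and Car5a included, none passed without OB-TUDCA replicates 2 or 3, OB-control replicate 1 or N-control replicate 2 (adjusted p from 0.0545 to 0.162). With any 1 of the other 5 arrays left out, between 6 and 12 of the 13 passed (adjusted p from 0.00999 to 0.0901).

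**Figure D4:**
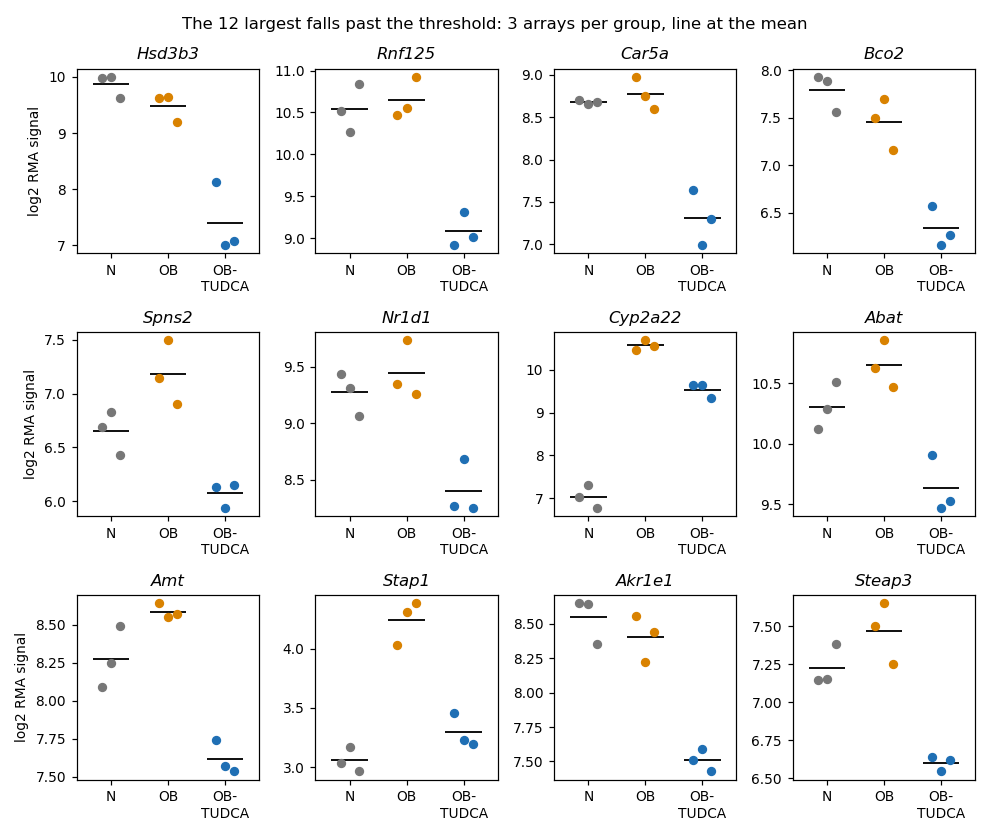
Log2 RMA signal of the 12 genes with the largest falls past the threshold, with 1 point per array, 3 arrays each for N-control (N), OB-control (OB) and OB-TUDCA, and a line at the mean. The vertical axes do not start at 0. Car5a, Rnf125 and Hsd3b3 have like levels in both control groups and lower ones in OB-TUDCA, whereas Stap1 and Cyp2a22 are lowest in N-control.

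Steroid and bile acid genes held the largest fall of all and rises in a bile acid enzyme and a bile acid transporter. Hsd3b3, a hydroxysteroid dehydrogenase that oxidizes steroid hormones, had signals of 9.62, 9.64 and 9.20 on the OB-control arrays and 8.12, 7.01 and 7.07 on the OB-TUDCA arrays, and fell by 2.09 (standard error 0.27, adjusted p = 0.0262), or 4.25-fold. The OB-TUDCA arrays differed among themselves, with replicate 1 more than 1 unit above the other two, and all lay below the 6 control arrays. Hsd3b2, a close paralogue whose probes may share transcripts with it, had signals of 7.17, 7.38 and 6.46 on the OB-control arrays and 5.96, 4.57 and 4.99 on the OB-TUDCA arrays, a difference of -1.83 (standard error 0.35, adjusted p = 0.066) with the same replicate nearest to the controls. Hsd3b7, the family member of bile acid synthesis, differed by -0.75 (standard error 0.14, adjusted p = 0.0637), and Hsd3b1, Hsd3b5 and Hsd3b6 had means below 3 in both ob/ob groups and overlapping arrays. The list of 20 measured steroid and sterol dehydrogenases had a median difference of -0.196. Its arrays were apart in 4 lower and 2 higher genes, against 6.53% and 7.26% of all genes.

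Cyp39a1, an oxysterol hydroxylase that leads into bile acids, had signals of 8.60, 8.89 and 8.44 on the OB-control arrays and 9.89, 9.67 and 9.98 on the OB-TUDCA arrays. The N-control arrays, at 9.41, 9.26 and 9.13, lay between the ob/ob groups, and the rise was 1.2 (standard error 0.13, adjusted p = 0.0192). Slc10a2, the sodium-dependent transporter that takes up bile acids at the apical membrane of ileum and bile duct cells, had signals of 6.77, 6.61 and 6.42 on the OB-control arrays and 7.48, 7.77 and 8.27 on the OB-TUDCA arrays, and rose by 1.24 (standard error 0.20, adjusted p = 0.0468). Its OB-TUDCA arrays were above all 6 control arrays. Over the 17 measured genes of bile acid synthesis the median difference was -0.177, and Cyp39a1 was the only one called. Beside it the arrays were apart in 5 lower genes, against 6.53% of all genes. Over the 23 of bile acid transport and sensing the median difference was -0.141, with Slc10a2 as the only call. Their arrays were apart in 3 lower and 2 higher genes, against 6.53% and 7.26% of all genes. Cyp7a1, the rate-limiting enzyme of bile acid synthesis, differed by -1.93 (standard error 0.57, adjusted p = 0.198), and its arrays spread widely, at 9.09, 8.86 and 10.54 on the OB-control arrays and 8.54, 7.71 and 6.44 on the OB-TUDCA arrays. Abcb11, the bile salt export pump, had signals of 11.35, 11.27 and 10.94 on the OB-control arrays and 10.12, 9.54 and 10.39 on the OB-TUDCA arrays and lay just outside the threshold at -1.17 (standard error 0.20, adjusted p = 0.0529). Of Hsd3b3, Cyp39a1 and Slc10a2 none passed without OB-TUDCA replicates 2 or 3, OB-control replicate 1 or N-control replicate 2 (adjusted p from 0.0545 to 0.152), and between 1 and 3 of the 3 passed when any 1 of the other 5 arrays was left out (adjusted p from 0.00743 to 0.102).

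Cyp2a22, Cyp2a12, Ces1g, Tpmt, Bphl and Ptgr2, enzymes that act on drugs, other foreign compounds or lipid mediators, fell in OB-TUDCA mice. The first 2 were the calls among 42 measured P450 genes of families 1 to 4 and Ces1g the call among 20 monooxygenases, aldehyde oxidases and carboxylesterases, while the last 3 are on no list. Cyp2a22, a cytochrome P450, had signals of 10.47, 10.69 and 10.56 on the OB-control arrays and 9.64, 9.64 and 9.34 on the OB-TUDCA arrays, and fell by 1.04 (standard error 0.14, adjusted p = 0.0295). Its N-control arrays were at 7.02, 7.31 and 6.77, so that OB-control exceeded N-control by 3.54 (adjusted p = 3.86e-06) and OB-TUDCA lay nearer to OB-control than to N-control. Cyp2a12, its neighbour on the chromosome and a close paralogue, fell by 0.45 (standard error 0.07, adjusted p = 0.0386), the smallest fall of the 60 genes, with signals of 10.74, 10.75 and 10.87 on the OB-control arrays and 10.36, 10.33 and 10.32 on the OB-TUDCA arrays. The gap between the groups was 85.8% of that difference, as in Srbd1 the highest share among the 60 genes. Probes of both may read transcripts of the other, which the files do not show. Cyp2b13 had the lowest difference of the list, -2.02 (standard error 0.47, adjusted p = 0.109), without passing. Over the P450 list 37 genes had a lower mean, the median difference was -0.278, and the arrays were apart in 13 lower genes and 1 higher one, against 6.53% and 7.26% of all genes.

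Ces1g, a carboxylesterase that hydrolyses lipid esters and drugs, fell by 0.79 (standard error 0.10, adjusted p = 0.0249), from 10.94 ± 0.18 to 10.15 ± 0.03 (SD, n = 3 arrays each). In the other 6 measured Ces1 genes the arrays of the groups overlapped. The list that holds Ces1g had a median difference of -0.169. Tpmt, which methylates thiopurine drugs, fell by 0.84 (standard error 0.10, adjusted p = 0.0249), with signals of 10.13, 9.90 and 10.10 on the OB-control arrays and 9.39, 9.16 and 9.06 on the OB-TUDCA arrays. Bphl, a serine hydrolase that activates prodrugs, and Ptgr2, a reductase of prostaglandins, fell by 0.48 (standard error 0.08, adjusted p = 0.0468) and 0.49 (standard error 0.07, adjusted p = 0.0386). Among 20 measured glutathione transferases the median difference was -0.401 and the arrays were apart in 11 genes, all lower, against 6.53% of all genes, but none passed the threshold in limma, with 12 lower and none higher at a p under 0.05 before adjustment. The largest of these 11 were Gstt2 (-0.93 (standard error 0.21, adjusted p = 0.108)), Gstm7 (-0.85 (standard error 0.17, adjusted p = 0.0751)) and Gsta4 (-0.79 (standard error 0.23, adjusted p = 0.181)). The 13 measured genes of sulfation had a median difference of -0.219 and no call in limma (6 lower and none higher at a p under 0.05 before adjustment), with the sulfotransferases Sult3a1 and Sult1b1 at -1.13 (standard error 0.30, adjusted p = 0.146) and -0.99 (standard error 0.32, adjusted p = 0.24), and Papss2, which makes the sulfate donor, at -1.08 (standard error 0.22, adjusted p = 0.0797). Of all genes, 5.72% were lower and 6.26% higher at an unadjusted p under 0.05 in limma. In the sulfation list the arrays were apart in 5 lower genes and 1 higher one, against 6.53% and 7.26% of all genes. The means of Sult3a1, 3.58 in OB-control and 2.44 in OB-TUDCA, lay below the median of every array. None of the 6 genes that fell passed without OB-TUDCA replicates 2 or 3, OB-control replicate 1 or N-control replicate 2 (adjusted p from 0.0545 to 0.16), and between 1 and 6 of the 6 passed without any 1 of the other 5 arrays (adjusted p from 0.0171 to 0.0958).

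**Figure D5:**
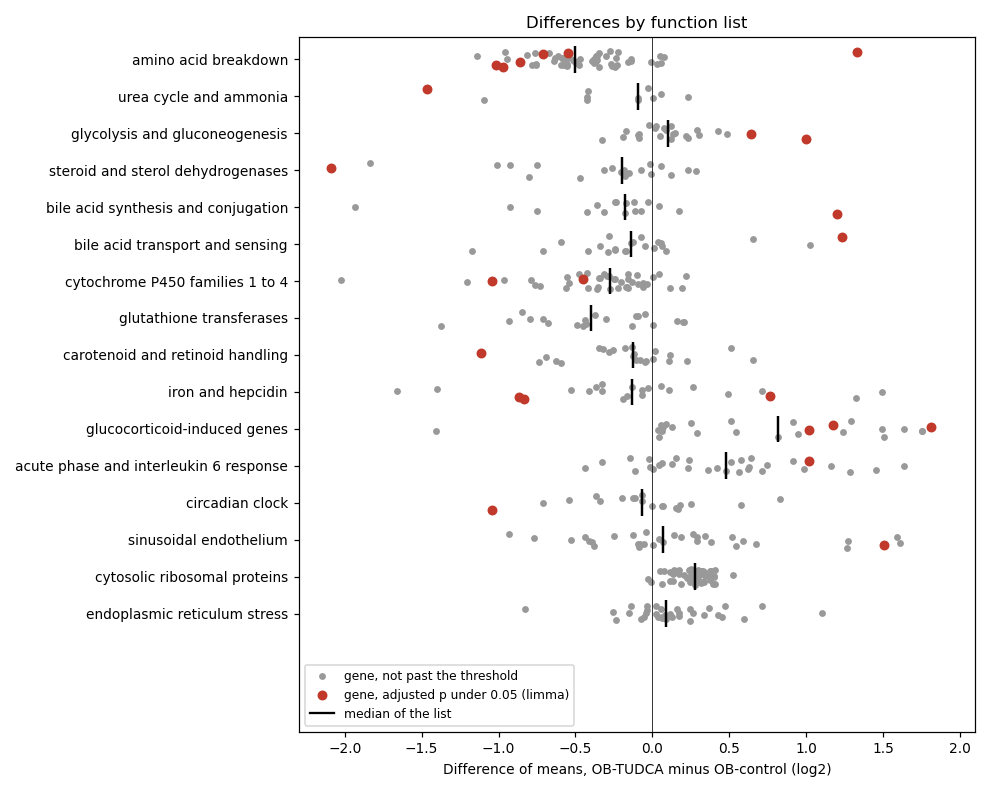
Each point is a gene of a list, placed by its log2 difference of OB-TUDCA minus OB-control, with genes past the threshold in red and the median of the list as a black line. Points are spread vertically only to be seen. The medians reach from -0.504 for amino acid breakdown to 0.818 for glucocorticoid-induced genes.

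Of the genes of iron handling, the metal importer Slc39a14 rose, while Hjv, the coreceptor that induces hepcidin, and Steap3, a reductase of endosomal iron, fell. Slc39a14 had signals of 8.96, 9.03 and 8.66 on the OB-control arrays and 9.48, 9.70 and 9.76 on the OB-TUDCA arrays, and rose by 0.77 (standard error 0.12, adjusted p = 0.0402). Hjv had signals of 8.64, 8.72 and 8.74 on the OB-control arrays and 7.85, 7.72 and 8.03 on the OB-TUDCA arrays, and fell by 0.84 (standard error 0.11, adjusted p = 0.0285). Its N-control arrays, at 7.88, 7.93 and 8.23, lay near the OB-TUDCA arrays, and OB-control exceeded N-control by 0.69 (adjusted p = 0.0278). Steap3 had signals of 7.50, 7.65 and 7.25 on the OB-control arrays and 6.64, 6.54 and 6.62 on the OB-TUDCA arrays, and fell by 0.87 (standard error 0.11, adjusted p = 0.0262), whereas Steap4, an iron reductase of the acute phase, differed by 0.71 (standard error 0.18, adjusted p = 0.132). Over the 23 measured genes the median difference was -0.134. Their arrays were apart in 5 higher and 5 lower genes, against 7.26% and 6.53% of all genes. Hamp, the hormone hepcidin itself, differed by -1.66 (standard error 0.65, adjusted p = 0.344) with overlapping arrays at 11.25, 12.40 and 10.15 on the OB-control arrays and 9.72, 10.61 and 8.48 on the OB-TUDCA arrays. Tfrc, the receptor that takes up transferrin, and Hmox1, which frees iron from heme, differed by 1.5 (standard error 0.39, adjusted p = 0.149) and 1.32 (standard error 0.27, adjusted p = 0.0813). The 3 genes past the threshold did not pass without OB-TUDCA replicates 2 or 3, OB-control replicate 1 or N-control replicate 2 (adjusted p from 0.0607 to 0.152), and between 1 and 3 of the 3 did with any 1 of the other 5 arrays left out (adjusted p from 0.0296 to 0.0753).

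Among genes of sugar metabolism Aldoa and Pfkp rose, and Akr1e1 fell. Aldoa, the aldolase of muscle and most other tissues, had signals of 9.30, 9.10 and 9.61 on the OB-control arrays and 10.05, 10.53 and 10.42 on the OB-TUDCA arrays, and rose by 1.0 (standard error 0.15, adjusted p = 0.0402). Pfkp, a phosphofructokinase that is low in liver, had signals of 4.58, 4.26 and 4.49 on the OB-control arrays and 4.98, 5.17 and 5.11 on the OB-TUDCA arrays, and rose by 0.64 (standard error 0.09, adjusted p = 0.0386). On the OB-control arrays its signals lay near or below the medians of those arrays, 4.579, 4.542 and 4.545. Hepatocytes are known to use little of Aldoa and Pfkp. In Pfkl and Pfkm, the isoforms of liver and muscle, the arrays overlapped. The 24 measured genes of glycolysis and gluconeogenesis had a median difference of 0.104, with no other call. Of all genes, 0.115% were called higher. The arrays were apart in 3 of the 24, all higher, against 7.26% of all genes. Akr1e1, a reductase of anhydrofructose, fell by 0.89 (standard error 0.11, adjusted p = 0.0259), with signals of 8.55, 8.22 and 8.44 on the OB-control arrays and 7.51, 7.59 and 7.43 on the OB-TUDCA arrays. Bco2, a mitochondrial enzyme that cleaves carotenoids, had signals of 7.49, 7.70 and 7.16 on the OB-control arrays and 6.57, 6.16 and 6.26 on the OB-TUDCA arrays, and fell by 1.12 (standard error 0.16, adjusted p = 0.0386). Bco1, which cleaves carotene into retinal, differed the other way, by 0.51 (standard error 0.15, adjusted p = 0.2), and the 24 measured genes of carotenoid and retinoid handling had a median of -0.122. Bco2 was the only call among these 24, while 0.186% of all genes were called lower. Their arrays were apart in 3 higher and 5 lower genes, against 7.26% and 6.53% of all genes. Without OB-TUDCA replicates 2 or 3, OB-control replicate 1 or N-control replicate 2 none of these 4 calls held (adjusted p from 0.0585 to 0.16), and between 1 and 4 of the 4 held with any 1 of the other 5 arrays left out (adjusted p from 0.0187 to 0.0753).

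Cd93, Rhoc, Timp3, Tspan4, Chsy3 and Sema3f rose, and Spns2 and Stap1 fell. These 8 genes of cell surfaces, matrix, cell shape and signalling were put together after their values were seen, and no list of that scope was counted. Cd93, a lectin-like receptor of endothelial cells and myeloid cells, had signals of 5.88, 5.74 and 6.12 on the OB-control arrays and 6.85, 7.63 and 7.76 on the OB-TUDCA arrays, and rose by 1.51 (standard error 0.25, adjusted p = 0.0499999). OB-TUDCA replicate 1 was the lowest of its group by more than 0.7. Of the 33 measured markers of sinusoidal endothelium Cd93 alone passed. The arrays were apart in 11 higher and 4 lower markers, against 7.26% and 6.53% of all genes, and the median difference was 0.0687. On the higher side were Lyve1 (1.61 (standard error 0.37, adjusted p = 0.108)), Thbd (1.59 (standard error 0.31, adjusted p = 0.0719)), Jam2 (1.28 (standard error 0.23, adjusted p = 0.0635)) and Ednrb (1.27 (standard error 0.26, adjusted p = 0.0797)), and on the lower side Kdr (-0.93 (standard error 0.22, adjusted p = 0.108)), the receptor for vascular endothelial growth factor. The mean level of the endothelial list was 6.704 to 6.983 on the OB-control arrays and 7.02 to 7.087 on the OB-TUDCA arrays. The Kupffer cell and macrophage list, given above, had its highest means on OB-TUDCA replicates 3 and 2, the arrays highest in Cd93, and 6.616 on replicate 1. The part of either list in the difference of Cd93 was not tested, and a change in the number of cells of a type and one in the RNA per cell cannot be told apart in whole liver.

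Rhoc, a small GTPase that shapes the actin skeleton, had signals of 5.55, 5.38 and 5.85 on the OB-control arrays and 6.74, 6.87 and 7.41 on the OB-TUDCA arrays, and rose by 1.41 (standard error 0.18, adjusted p = 0.0249). Its 6 control arrays lay between 5.38 and 5.88, and in Rhoa and Rhob the arrays of the groups overlapped. Timp3, an inhibitor of matrix metalloproteinases, rose by 0.80 (standard error 0.11, adjusted p = 0.0285), while Timp1 and Timp2 differed by -0.18 and 0.34 (adjusted p = 0.557 and 0.315). Tspan4, a tetraspanin, Chsy3, a synthase of chondroitin, and Sema3f, a secreted guidance factor, rose by 0.77, 0.69 and 0.68 (standard errors 0.12, 0.10 and 0.11). Spns2, which exports sphingosine phosphate, had signals of 7.15, 7.50 and 6.90 on the OB-control arrays and 6.13, 5.94 and 6.15 on the OB-TUDCA arrays, and fell by 1.11 (standard error 0.16, adjusted p = 0.0323). It was the only gene called of the 23 measured in sphingolipid handling. Stap1, a signalling adaptor of blood cells, had signals of 4.03, 4.31 and 4.38 on the OB-control arrays and 3.45, 3.23 and 3.20 on the OB-TUDCA arrays, and fell by 0.95 (standard error 0.11, adjusted p = 0.0249). All its values lay below the median of their array. Of the 8 genes none passed without OB-TUDCA replicates 2 or 3, OB-control replicate 1 or N-control replicate 2 (adjusted p from 0.0585 to 0.193), and between 2 and 6 of the 8 passed without any 1 of the other 5 arrays (adjusted p from 0.0171 to 0.0987).

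Rnf125, a ubiquitin ligase that restrains antiviral signalling, had signals of 10.47, 10.55 and 10.92 on the OB-control arrays and 8.92, 9.31 and 9.02 on the OB-TUDCA arrays. The 6 control arrays lay between 10.26 and 10.92 and the gap below them was 1.16. It fell by 1.57 (standard error 0.17, adjusted p = 0.0192), or 2.96-fold. Rnf167, a ligase of endosomes and lysosomes, and Ube2h, a ubiquitin-conjugating enzyme, fell by 0.61 (standard error 0.09, adjusted p = 0.0386) and 0.78 (standard error 0.10, adjusted p = 0.0249). The 24 measured ubiquitin genes had a median difference of -0.11. Their arrays were apart in 3 higher and 5 lower ones, against 7.26% and 6.53% of all genes. Samd9l, an interferon-induced gene, fell by 0.76 (standard error 0.11, adjusted p = 0.0323), with signals of 6.03, 6.12 and 6.01 on the OB-control arrays and 5.10, 5.32 and 5.45 on the OB-TUDCA arrays, and OB-control exceeded N-control by 0.62 (adjusted p = 0.0346). With Rnf125 it was the only call among the 29 measured interferon response genes, whose median difference was 0.015. Of all genes, 0.186% were called lower. The arrays of the interferon list were apart in 2 higher and 5 lower genes, against 7.26% and 6.53% of all genes. Parp12, an ADP-ribosyltransferase, fell by 0.53 (standard error 0.08, adjusted p = 0.0452).

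Nop56, a core protein of the particles that modify ribosomal RNA, rose by 0.67 (standard error 0.09, adjusted p = 0.0323), and Rpph1, the RNA of ribonuclease P, by 0.56 (standard error 0.08, adjusted p = 0.0285). The 55 measured genes of cytosolic ribosomal proteins had a median difference of 0.28, and 53 had a higher mean in OB-TUDCA mice. Their arrays were apart in 25, all higher, against 7.26% of all genes, while none passed the threshold in limma. Before adjustment 36 were higher and none lower at a p under 0.05 in limma, against 6.26% and 5.72% of all genes. The largest of the 25 were Rps28 (0.52 (standard error 0.12, adjusted p = 0.108)), Rps3 (0.41 (standard error 0.10, adjusted p = 0.132)) and Rpl5 (0.38 (standard error 0.13, adjusted p = 0.251)). The mean of these genes was 8.772, 9.1 and 8.892 on the OB-control arrays, 9.162, 9.276 and 9.123 on the OB-TUDCA arrays and 9.168 to 9.2 on the N-control arrays. Gpkow, a splicing factor, rose by 0.44 (standard error 0.07, adjusted p = 0.0441), and Pigf, of the synthesis of membrane anchors, by 0.69 (standard error 0.08, adjusted p = 0.0192). Pigf had 3 narrow groups, with 5.70, 5.79 and 5.73 on the OB-control arrays and 6.34, 6.49 and 6.46 on the OB-TUDCA arrays. Srbd1, an RNA-binding protein, Gpsm2, which orients the mitotic spindle, Slc35d2, a carrier of nucleotide sugars, Prnp, the prion protein, Rpa1, which binds single-stranded DNA, and Cebpzos, a small mitochondrial protein, fell by 0.73, 0.60, 0.59, 0.73, 0.48 and 0.51 (standard errors 0.08 to 0.11). Of these 15 genes, Rnf125 included, none passed without OB-TUDCA replicates 2 or 3, OB-control replicate 1 or N-control replicate 2 (adjusted p from 0.0545 to 0.163). With any 1 of the other 5 arrays left out, between 2 and 7 of the 15 passed (adjusted p from 0.0171 to 0.0896).

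Lists without a gene past the threshold included stress of the endoplasmic reticulum, the process that TUDCA is used to lower. Its 34 measured genes had a median difference of 0.0874, and 24 had a higher mean in OB-TUDCA mice. The arrays were apart in 7 higher genes and 1 lower one, against 7.26% and 6.53% of all genes. A p under 0.05 before adjustment in limma was reached by 8 higher and 3 lower ones, against 6.26% and 5.72% of all genes. The higher ones included Psat1, an enzyme of serine synthesis (0.71 (standard error 0.26, adjusted p = 0.297)), Creld2 (0.60 (standard error 0.13, adjusted p = 0.0863)) and Manf (0.45 (standard error 0.10, adjusted p = 0.0865)), both secreted on such stress, and Hspa5, the main chaperone of the compartment (0.24 (standard error 0.10, adjusted p = 0.349)). The lower gene with arrays apart was Trib3, a pseudokinase that this stress induces (-0.82 (standard error 0.29, adjusted p = 0.288)). The list of p53 targets had a median of 0.124 over 20 genes, with the stress genes Gadd45b, Sesn2 and Sesn3 at 1.04, 0.57 and -0.77 (adjusted p = 0.126, 0.181 and 0.0502). That of the cell cycle had a median of -0.08 over 28 genes, with Rrm2, which makes deoxynucleotides, at 0.94, Ccne1, a cyclin, at 0.61, and Spc24, of the kinetochore, at -0.84 (adjusted p = 0.148, 0.109 and 0.066). The lists of Kupffer cells (median 0.286), stellate cells (0.118), cholangiocytes (0.152), lymphocytes (-0.00211), neutrophils (0.255), erythroid cells (-0.0126), adipocytes (-0.0067), acinar cells (0.132) and hepatocytes (0.00263) also held no call. Arrays were apart in 15% of Kupffer cell markers, 22.7% of stellate, 12.5% of cholangiocyte and 13.3% of lymphocyte ones, against 13.8% of all genes. The share was 20% for neutrophils, 33.3% for erythroid cells (3 genes measured), 8.33% for acinar cells and 9.09% for hepatocytes. For p53 targets and the cell cycle it was 20% and 14.3%. Kupffer cell markers with arrays apart were Cd14 (0.99 (standard error 0.32, adjusted p = 0.244)), Cd163 (0.92 (standard error 0.17, adjusted p = 0.0652)) and Fcgr1 (0.17 (standard error 0.08, adjusted p = 0.428)). For stellate cells they included Hgf (0.57 (standard error 0.20, adjusted p = 0.281)), Timp2 (0.34 (standard error 0.13, adjusted p = 0.315)) and Bmp5 (-0.28 (standard error 0.08, adjusted p = 0.188)). Among the other lists, the members with arrays apart differed by 0.51 (Sox9, cholangiocytes), -0.22 and 0.14 (Cd79b and Nkg7, lymphocytes), 0.48 and 0.23 (Cxcr2 and Mmp9, neutrophils), 0.54 (Slc4a1, erythroid cells), 0.53 and 0.52 (Cel and Cpa1, acinar cells) and 0.43 (Apoa1, hepatocytes). The adipocyte list had none, and its members of highest signal, Car3 and Cidec, differed by -0.47 (standard error 0.16, adjusted p = 0.263) and 0.86 (standard error 0.86, adjusted p = 0.751). Before adjustment, each of these 11 lists held 0 to 5 higher and 0 to 2 lower genes at a p under 0.05 in limma. Of the 36 measured immediate early genes and Mapk kinases Map3k6 was the only call, with a median of 0.183. Their arrays were apart in 10 higher genes and 1 lower one, against 7.26% and 6.53% of all genes. Of 29 measured solute carriers of anions, cations and vitamins Slc35d2 and Slc25a21 passed, with a median of -0.28, and of 26 aquaporins, channels and receptors Il6ra, with a median of -0.167. Of all genes, 0.186% were called lower and 0.115% higher. Arrays were apart in 2 higher and 8 lower carriers, against 7.26% and 6.53% of all genes. The list of aquaporins, channels and receptors had 7 higher and 6 lower ones.

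Of the 60 genes, 10 also passed the threshold between OB-control and N-control mice, where 0.948% of all genes did, and both comparisons share the OB-control arrays. The 4 that rose in OB-TUDCA mice, Csad, Tcim, Pigf and Nfxl1, differed between OB-control and N-control mice by -1.38, -0.95, -0.68 and -0.66, so their differences from OB-control ran the same way in both other groups. The 6 that fell, Cyp2a22, Stap1, Hjv, Samd9l, Acad10 and Dglucy, were higher in OB-control by 3.54, 1.19, 0.69, 0.62, 0.56 and 0.51. The other 50 genes did not pass between OB-control and N-control mice, which does not show that these groups were alike. In Car5a, Rnf125, Aldoa and Map3k6 that difference was 0.09, 0.11, 0.02 and -0.01 (standard errors 0.15, 0.17, 0.15 and 0.18).

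Some genes with wide gaps missed the threshold, which weighs the spread on all 9 arrays. Camk1d, a calcium-dependent kinase, had signals of 7.99, 7.90 and 7.90 on the OB-control arrays and 7.07, 6.93 and 6.43 on the OB-TUDCA arrays, a difference of -1.12 (standard error 0.21, adjusted p = 0.066). Sgk2, a kinase related to a glucocorticoid-induced one, had a difference of -1.14 (standard error 0.19, adjusted p = 0.0529), and Shld2, a protein of DNA repair, one of 1.30 (standard error 0.23, adjusted p = 0.0613). In Shld2 the OB-TUDCA arrays lay close together, at 8.54, 8.53 and 8.66. At the other end, the gap was 80.2% to 85.8% of the difference in Cyp2a12, Srbd1, Amt, Ces1g, Gpkow, Pigf and Cyp2a22, the genes of the 60 in which the arrays of each group lay closest together relative to the change.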

How the data were processed

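Liver RNA of 9 mice, 3 per group, was measured on 1 array each. The labels give replicates as separate samples, and the number of arrays limits the precision: 3 against 3 cannot give an exact permutation p below 0.1. Before deposition the authors converted the scans to log2 signals with RMA in Affymetrix Expression Console, whose version is not given in the sources used here, and these deposited log2 values were used as they are. RMA equalizes the distributions of the arrays, so a shift of all genes in 1 direction would be removed.

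Probe sets with 1 gene symbol in the platform annotation were averaged per symbol. Left out were 1621 probe sets with several symbols and 12146 without one, and 999 genes had several probe sets, of the called ones Nfxl1 and Ube2h. The test was that of limma 3.58.1 under R 4.3.3, in a fit of 3 group means on all 9 arrays (6 residual and 3.33 prior degrees of freedom), two-sided, with Benjamini-Hochberg adjustment over 19938 genes and a threshold of 0.05. It took the place of the SAM selection in the study's methods, which was not run here. On simulated data with 19938 genes it found 90% of the 100 changed 2-fold and 98% of the 100 changed 4-fold, with 6 false calls. The simulated noise was normal and independent for each gene and array, so these shares need not hold for the real arrays. There 46 genes were more than 2-fold higher and 45 more than 2-fold lower, of which 9 and 8 passed. The software also included version 1.17.8 of data.table, Python 3.11.15, pandas 2.3.3 and matplotlib 3.10.9.

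Genes named are the 15 largest rises and falls past the threshold, the 10 widest gaps in each direction, the members of 36 lists past the threshold or otherwise the 3 largest differences with arrays apart, and paralogues. The remaining called genes, those at the edge of the threshold and other list members were named after their values were seen. The genes, the lists and the tests were chosen with earlier results of these data known. Same-numbered arrays of both ob/ob groups had correlations of deviations (Pearson r) of 0.0594, -0.0753 and 0.209, so the numbers were not taken as pairs. The alternatives were other filters, scalings, variance models and tests, single probe sets, a replicate block and the omission of each array.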

Additional observations from a re-analysis of the deposited data

How the results depend on the processing

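Among 131 genes followed through the alternatives, the 60 past the threshold included, only Cidec, a fat droplet gene that missed it, changed direction. Its difference was -0.132 without OB-control replicate 2 and up to 1.70 with another array left out, and the cause was not tested. In each of the 60 the arrays of the groups did not overlap, so omitting an array could not reverse their direction. Their steady direction is therefore no independent evidence. The number of genes past the threshold varied more. Leaving out the genes of lowest signal gave 50 higher and 81 lower ones (59 of the 60 among them), and a second quantile normalization 45 and 52 (57). Subtracting each array's median gave 31 and 40 (55), a trended, robust variance 33 and 50 (58), and array weights 24 and 41 (54). With the replicate block there were 29 and 31, of which 33 were among the 60. Over single probe sets there were 19 and 39. In limma, 0 higher and 0 lower genes passed with only the 6 ob/ob arrays or with the acinar mean of the arrays as a covariate. The methods' t-test, which the study names without tying it to the arrays, gave 704 higher and 714 lower genes without adjustment, all of the 60 among them, and 0 and 0 after Benjamini-Hochberg adjustment. With 1 array left out, the counts ranged from 0 to 66 higher and from 0 to 69 lower, and genes whose arrays do not overlap from 4123 to 4987, since 3 arrays against 2 separate more readily. For OB-control against N-control, 189 genes passed, 74 with the acinar covariate, 189 with the replicate block, and 60 to 266 with 1 array left out. The median difference of all genes moved from 0.0122 to 0.036 and 0.0315 under the other scalings.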
